A study of Saccharomyces cerevisiae with 10 samples.

Results

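The adaptive contrast sets what a yeast deletion strain gained from a mild pretreatment with hydrogen peroxide against what it lost to a high dose alone. It was computed for 4611 strains over all 10 barcode arrays of the series, 6 arrays of adapted over acute and 4 arrays of acute over untreated. In the adapted portion the pool received 0.1 mM H2O2 for 45 min and then 0.4 mM for 1 h, in the acute portion a sham treatment and then 0.4 mM for 1 h, and in the untreated portion neither dose. All portions then grew for 5 h in fresh rich medium. The cells were a pool of viable haploid single-gene deletion strains made in one laboratory background, so every strain competed with all others in 1 culture and a log ratio is its share of the pool, not its growth alone. Each array came from its own frozen aliquot, whose culture was split into the pair of portions compared, so the adapted arrays and the acute arrays share no culture.

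Each deletion strain carries a pair of short DNA barcodes, the tags, that are amplified and hybridised so that its abundance in 2 portions can be compared. The contrast was minus the mean adapted over acute log ratio, minus the mean acute over untreated log ratio. Since the comparisons share the acute condition, their log ratios add up to adapted over untreated, and the contrast is minus that sum. The ratios of each array are centred near 0, so gain, loss, level and repair are meant here relative to the typical strain of the pool. A ratio of 0 in adapted over acute is a gain like that of the typical strain, not the absence of a gain. The contrast is 0 for a strain whose relative gain with pretreatment equals its relative acute loss. It is above 0 for a strain that stays below its untreated level relative to the pool. The recovered share used below is 100 times the mean adapted over acute log ratio divided by the size of the mean acute loss, in percent. It is the same for any log base, and it is the same if the sign of every ratio is turned.

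Yeast cells that meet a little peroxide survive a later high dose better. In this adaptation the transcription factors Yap1 and Skn7 switch on peroxide-scavenging enzymes, and mitochondria are both a source and a target of the oxidants. Deletion strains without mitochondrial gene expression or respiration are often sensitive to peroxide. ESCRT complexes sort membrane proteins at the endosome, and some of them also carry the Rim101 signal that yeast uses in alkaline medium. Homologous recombination mends broken DNA.

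The deposited ratios change sign at 1 place on the array, and the signs of the spots after it were turned. Before this, 3475 replicate spots of the first tags had exactly the opposite sign of their main spot. After turning, the tags of a strain had correlations across strains from −0.02 to 0.28 on single arrays, so a single tag is a noisy measure. Over all spots, adapted replicates 2 and 4 had r = −0.35, and the main counts are given without this pair too. Between arrays, strain values had r from −0.21 to 0.57 among adapted arrays and from −0.05 to 0.53 among acute arrays. For the median strain, the SD over the adapted arrays was 0.229 and that over the acute arrays 0.225. Cy5 marked the portion with more peroxide on each of the 10 arrays. Dye and treatment therefore cannot be told apart, and a dye effect on a tag would have the same sign in both comparisons.

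In the acute comparison, 123 strains fell (limma, two-sided, unadjusted p under 0.005, the threshold of the study's Methods), which is 2.67% of all strains. These 123 were then read on the adapted arrays, which played no part in choosing them. On those arrays 26 of the 123 rose past the same test and 1, skn7Δ, fell. That is 21.1% higher, beside 1.26% of all strains higher and 1.52% lower in adapted over acute. At an unadjusted p under 0.05, limma gave 37 higher and 4 lower among the 123. On each of the 6 adapted arrays, 30 of the 123 were above 0, beside 158 of all 4611 strains. The median recovered share of the 123 was 8.14%, with a median standard error of 17.6 percentage points for a single strain. The strains were chosen by the same acute loss that stands below the line in the recovered share. The threshold is not adjusted for the number of strains. At a Benjamini-Hochberg adjusted p under 0.05, limma kept 3 acute losses, 16 contrasts above 0 and 1 gain among the acute losses.

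The share of acute losses that rose with pretreatment lay above that of all strains with each array left out in turn. It was lowest without acute replicate 2, at 12.8%, or 11 of 86 strains. Without acute replicates 1, 3 and 4 it was 14 of 83, 12 of 78 and 12 of 66 strains. Leaving out 1 adapted array gave 21 to 24 of the 123. Without adapted replicates 2 and 4 together, an alternative chosen after seeing the data, 13 of 123 rose, or 10.6%, beside 0.607% of all strains. The same alternative gave 48 unrepaired strains, 12 fully repaired ones and 55 contrasts above 0.

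**Figure D1:**
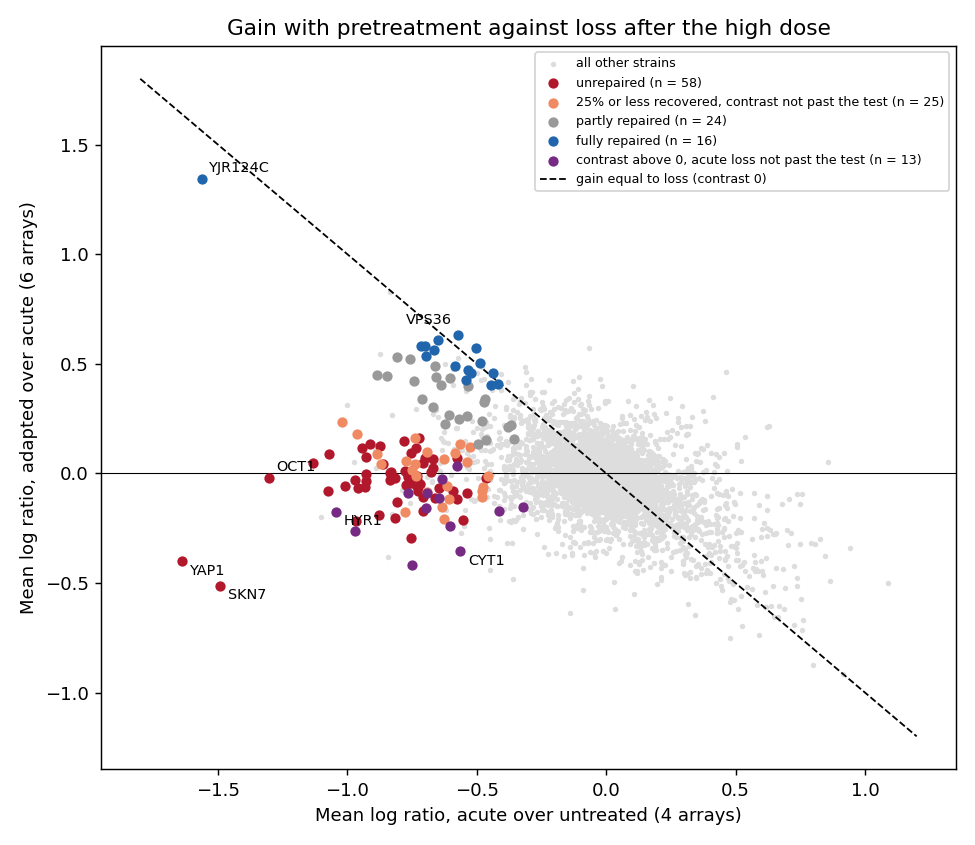
Mean adapted over acute log ratio (y axis, 6 arrays) against mean acute over untreated log ratio (x axis, 4 arrays), 1 point a strain, with the classes in colour and the line on which gain equals loss. The 58 unrepaired strains lie around 0 on the y axis, with YAP1 and SKN7 below it, and the 16 fully repaired strains lie near the dashed line.

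Cut by the recovered share, the 123 strains fell into 4 classes, which describe the readout and were not tested as classes. The unrepaired class holds 58 strains with 25% or less of the loss recovered and a contrast past the test. A second class of 25 strains had 25% or less recovered but a contrast that missed the test, and their adapted values were more scattered (median SD 0.454 over the adapted arrays, against 0.289 in the unrepaired class). In 24 strains the loss was partly repaired, and in 16 it was fully repaired, with 75% or more recovered. The contrast was above 0 past the test in 71 strains, 1.54% of all, of which 58 are the unrepaired ones, and below 0 in 8 strains, or 0.173%. The other 13 strains had a contrast above 0 and an acute loss that missed the test.

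Unrepaired strains had a median log ratio of −0.03 in adapted over acute and −0.77 in acute over untreated, with a median contrast of 0.80. Fully repaired strains had 0.52 in adapted over acute and −0.56 in acute over untreated, with a contrast of 0.06. The recovered share ran from −39.2% to 22.1% in the unrepaired class, median −3.28%, and from 77.0% to 114% in the fully repaired class, median 88.3%. In all 58 unrepaired strains the recovered share, raised by 2 standard errors, was under 50% (highest 47.2%). Among the 16 fully repaired strains, the share lowered by 2 standard errors stayed over 50% in 5 and went down to 33.6% in the lowest. The bound of the unrepaired class follows in large part from its definition, since strains of low recovery with wide errors miss the contrast test and stand in another class.

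At the class limits the values run on without a gap, here with the adjusted p in place of the unadjusted one that set the limit. For the acute loss, the last strain inside was sxm1Δ (limma adjusted p = 0.137) and the first outside cyt2Δ (limma adjusted p = 0.139). For the contrast, rrg9Δ was inside (limma adjusted p = 0.269) and dss1Δ outside (limma adjusted p = 0.304). At the limit of 25%, ybp1Δ was inside with 22.1% and mrp17Δ outside with 26.7%, and at 75%, vps20Δ was inside with 77.0% and erg2Δ outside with 74.5%.

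**Figure D2:**
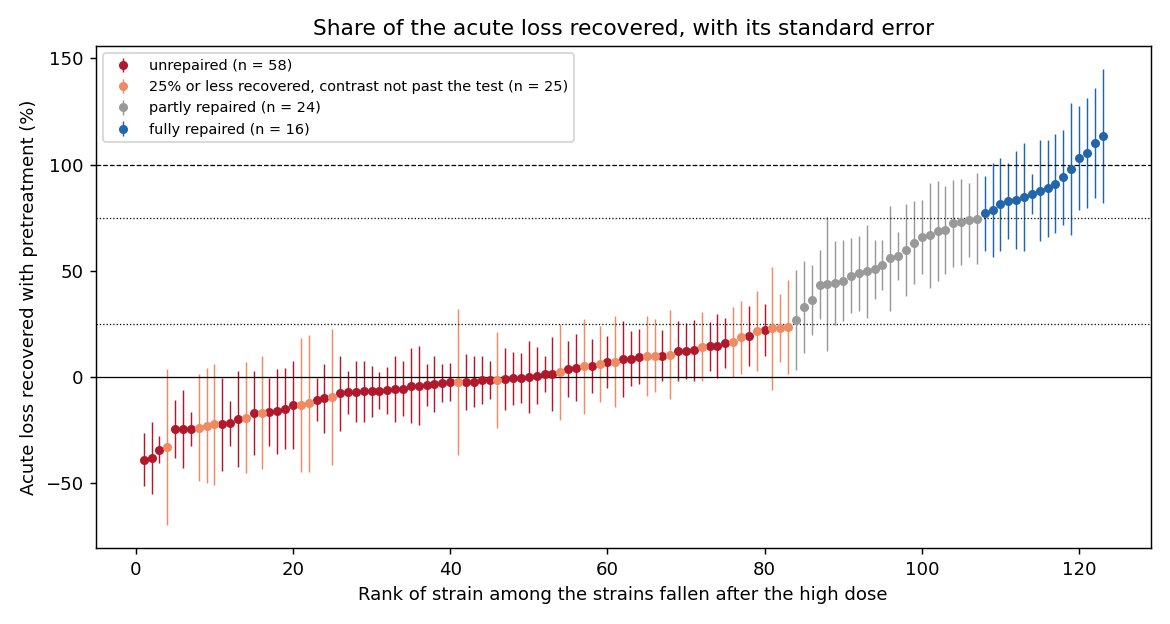
Share of the acute loss recovered with pretreatment (y axis, percent, with its standard error) for the 123 strains fallen after the high dose, in order of that share (x axis). Dotted lines mark 25% and 75%. Most strains lie around 0, with a median of 8.14%, and 16 lie at 75% or more.

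The classes depended on single acute arrays. Without acute replicate 3 there were 31 unrepaired strains, 27 of them among the 58, and without acute replicate 4 there were 32, 31 of them among the 58. Without any other single array there were 40 to 60. Fully repaired strains numbered 7, 9, 7 and 8 without acute replicates 1, 2, 3 and 4, and 16 to 20 without an adapted array. The contrast call of 33 of the 57 named unrepaired strains held with each of the 10 arrays left out in turn. The gain on the adapted arrays held in the same way for 12 of the 15 named fully repaired strains. The acute call, which the class needs too, held in the same way only in YJR124C, vps36Δ, stp22Δ and pkr1Δ. In the other named strains of the class it was lost without single acute arrays.

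The regulators of the peroxide response headed the unrepaired class. SKN7 encodes a transcription factor that acts with Yap1 at peroxide-induced genes. The skn7Δ strain had adapted over acute log ratios of −0.77 at the lowest, −0.51 at the median and −0.18 at the highest of 6 arrays, and acute over untreated log ratios of −1.19, −1.73, −1.81 and −1.25. All 10 values were below 0, and both tags were low in both comparisons. Its adapted over acute mean was −0.51 ± 0.20 (SD, n = 6; limma adjusted p = 0.0761), and it was the one strain of the 123 that fell again on the adapted arrays. Its contrast was 2.0 (standard error 0.16, limma adjusted p = 0.000324) and its recovered share −34.4%, with a standard error of 6.53 percentage points.

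YAP1 encodes the main peroxide-sensing activator, and its deletion strain was measured by 1 tag. The yap1Δ strain ranged from −0.81 through a median of −0.43 to 0.15 on the adapted arrays, below 0 on 5 of 6, and had −1.64, −1.64, −1.98 and −1.30 on the acute arrays. Its mean of −0.40 ± 0.36 (SD, n = 6) missed the unadjusted threshold in adapted over acute (limma adjusted p = 0.261). The contrast was 2.04 (standard error 0.20, limma adjusted p = 0.00126), the highest of all strains. YBP1, whose product binds Yap1 and is needed for its oxidation by peroxide, sat at the edge of the class with 22.1% recovered. The tags of ybp1Δ disagreed, with acute means of −1.34 for the first and −0.04 for the second, and its contrast call was lost in 8 of the 10 fits that leave out an array.

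HYR1 encodes the peroxidase that passes the peroxide signal to Yap1. The hyr1Δ strain had −0.59, −0.17 and 0.15 as lowest, median and highest on the adapted arrays, and −1.43, −0.25, −1.79 and −0.70 on the acute arrays. Its acute loss of −1.04 ± 0.69 (SD, n = 4) missed the threshold (limma adjusted p = 0.187), and its contrast of 1.22 (standard error 0.27, limma adjusted p = 0.129) passed the unadjusted one. The list of peroxide and stress transcription factors, which holds YBP1 too, has 17 strains. Of these, 3 had a contrast above 0 past the test, beside 1.54% of all strains. The list's median contrast was 0.05, beside 0.02 over all strains. The same list holds RIM101, whose strain was fully repaired with 87.7% recovered. On the adapted arrays 2 of the 17 rose and 2 fell, beside 1.26% and 1.52% of all strains. MGA2, which encodes an activator of fatty acid desaturation, was lower in the adapted than in the acute portion, with −0.38 ± 0.20 (SD, n = 6, below 0 on 6 of 6 arrays; limma adjusted p = 0.135), a call lost without adapted replicate 3, 5 or 6. The mga2Δ acute values were −1.03, 0.09, 0.31 and −0.03, on both sides of 0, and the contrast of 0.54 (standard error 0.23, limma adjusted p = 0.838) missed the threshold. The study's screen found MGA2 required for the adaptive and not the acute response, a call not reached here. Its growth curves of the single mga2Δ strain showed an adaptation defect too. The rox1Δ strain, which lacks a repressor of hypoxic genes, had a contrast of −0.04 (standard error 0.11).

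Strains without mitochondrial gene expression or respiration made up most of the rest of the unrepaired class. The lists of these functions cover the mitochondrial ribosome, tRNA charging and modification, translation, mitochondrial DNA, the respiratory complexes, coenzyme Q and ATP synthase, and hold 221 measured strains, 4.79% of all. Carriers, proteases, the TCA cycle and fatty acid synthesis of mitochondria are outside them. They gave 32 of the 58 unrepaired strains (55.2%), 13 of the 25 with low recovery and no contrast call, 3 of the 24 partly repaired and 1 of the 16 fully repaired. In the acute comparison 49 of the 221 fell, or 22.2%, beside 2.67% of all strains. On the adapted arrays 1 of these 49 rose, fmp25Δ, or 2.04%, and none fell (limma, unadjusted p under 0.005). Both counts are near the shares of all strains, 1.26% higher and 1.52% lower. Of the 74 other acute losses 25 rose, or 33.8%. Among the 25 are lpd1Δ, hfa1Δ and mrs4Δ, of the mitochondrial lists outside the 221. The median adapted over acute log ratio was −0.01 over the 49 and 0.16 over the 74, and their acute medians were −0.74 and −0.67. Their median recovered shares were −1.43% and 22.8%. The lists were chosen with earlier results of these data known, and both shares are descriptions.

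Some mitochondrial strains outside the 221 were unrepaired too. OCT1 encodes a peptidase that trims imported mitochondrial proteins. The oct1Δ strain had −0.46, −0.08 and 0.40 as lowest, median and highest on the adapted arrays, and −1.24, −1.33, −1.56 and −1.09 on the acute arrays. The adapted values lay on both sides of 0. Its recovered share was −1.62%, with a standard error of 9.09 percentage points. A small spread marked ppa2Δ, without the mitochondrial inorganic pyrophosphatase, and mrp21Δ, without a protein of the small mitochondrial ribosomal subunit. The ppa2Δ strain stayed between −0.16 and 0.10 on the 6 adapted arrays, against −0.77, −0.64, −0.95 and −0.59 on the acute arrays. The mrp21Δ strain stayed between −0.11 and 0.11, against −0.85, −0.50, −0.52 and −0.83. In both the adapted values sat close around 0, with recovered shares of −2.52% and 1.18%.

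GGC1 encodes the mitochondrial carrier that exchanges GTP and GDP. The ggc1Δ strain was below 0 on 6 of 6 adapted arrays, from −0.62 through a median of −0.26 to −0.08, and had −1.02, −0.57, −0.91 and −0.51 on the acute arrays. With −39.2% it had the lowest recovered share of the 123, but its adapted mean of −0.30 ± 0.19 (SD, n = 6) missed the threshold (limma adjusted p = 0.21). Its acute tags were unequal, −1.04 for the first and −0.38 for the second. The contrast was 1.05 (standard error 0.14, limma adjusted p = 0.0115).

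**Figure D3:**
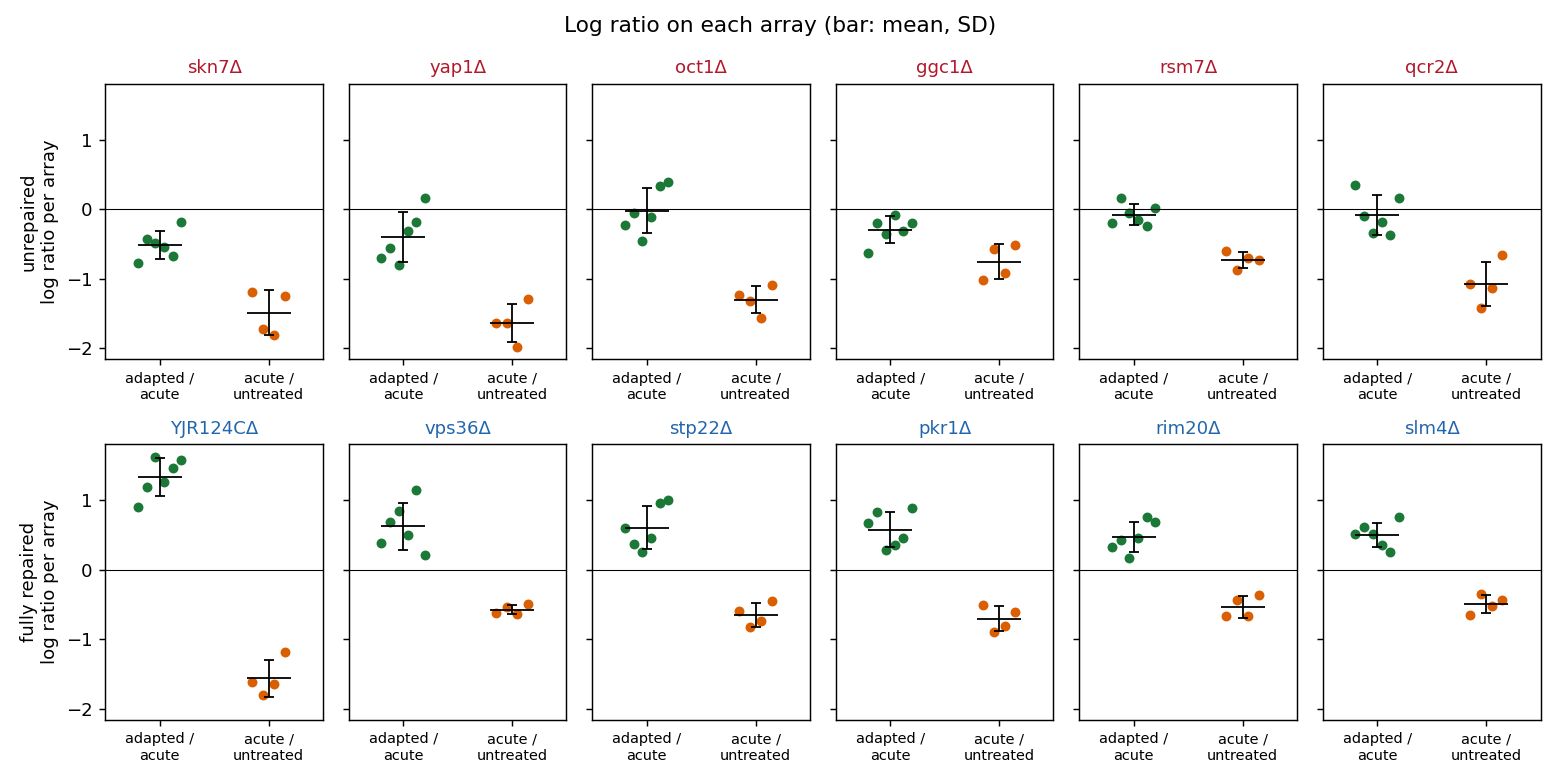
Log ratio on each array (y axis) for 6 unrepaired strains (upper row) and 6 fully repaired strains (lower row), adapted over acute on 6 arrays left and acute over untreated on 4 arrays right in each panel, with mean and SD. In skn7Δ and ggc1Δ all adapted values are below 0, in the other unrepaired strains they reach both sides of 0, and in the lower row all are above 0.

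Unrepaired strains were found in each list of mitochondrial gene expression and respiration except those of cytochrome c oxidase subunits, of ATP synthase, and of succinate and NADH dehydrogenases. Those lists hold 7, 17 and 9 strains, too few to set apart from the 58 unrepaired of all 4611. Of the 28 strains without a small-subunit protein of the mitochondrial ribosome, 6 fell in the acute comparison, beside 2.67% of all strains, with list medians of −0.00 and −0.48 for adapted over acute and acute over untreated. Of 38 large-subunit strains, 9 fell (medians −0.02 and −0.34). Of 17 strains without an enzyme or amidotransferase subunit that charges mitochondrial tRNAs, 6 fell (medians −0.01 and −0.54). None of these strains rose on the adapted arrays, which in lists of this size is near the 1.26% of all strains. RSM7, MRPL25, SLM3, which modifies mitochondrial tRNAs, and RPO41, the mitochondrial RNA polymerase, were among the unrepaired. The rsm7Δ strain had −0.24, −0.11 and 0.17 as lowest, median and highest on the adapted arrays and −0.60, −0.87, −0.70 and −0.73 on the acute arrays, with 4 of 6 adapted values below 0. The mgm101Δ strain, without a protein that maintains mitochondrial DNA, differed from these, with 68.7% of the loss recovered and adapted values that missed the test (limma adjusted p = 0.256).

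In the respiratory chain, the cytochrome bc1 complex passes electrons from coenzyme Q to cytochrome c. Of its 8 strains measured, 4 had a contrast above 0 past the test (qcr2Δ, qcr7Δ, qcr8Δ and cyt1Δ), beside 1.54% of all strains, and the list medians were −0.04 in adapted over acute and −0.58 in acute over untreated. The qcr2Δ strain, without a core subunit, had −0.37, −0.14 and 0.35 as lowest, median and highest on the adapted arrays, and −1.07, −1.43, −1.14 and −0.67 on the acute arrays. The cyt1Δ strain, without cytochrome c1, fell on the adapted arrays, with −0.57, −0.34 and −0.18 as lowest, median and highest (limma adjusted p = 0.113), and this call was lost without adapted replicate 5. Its acute values of −0.81, −0.09, −0.87 and −0.48 missed the test. Assembly factors of cytochrome c oxidase gave 5 of 25 strains with a contrast above 0, among them sco1Δ, cox15Δ and cox11Δ. Its 7 subunit strains gave none, a number too small to set apart from 1.54%. Coenzyme Q synthesis gave 3 acute losses of 7 strains, beside 2.67% of all strains. Of these, coq2Δ was unrepaired and coq3Δ and coq5Δ missed the contrast test. Of the 17 ATP synthase strains, 1 fell in the acute comparison, and of the 9 strains of succinate and NADH dehydrogenases none fell. In lists of this size both counts are near the 2.67% of all strains.

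Not all unrepaired strains are in these lists. Outside the 38 lists there are 15, 14 of them with a gene name, and those named here were picked after their values were seen. A gene outside the lists may still act in mitochondria. The mrx14Δ and gep5Δ strains are among the 14, with contrasts of 0.94 and 0.81. Also among the 14, RRG7, RRG9 and IRC19 are known as genes required for respiratory growth. SSA4 encodes a heat-induced Hsp70 chaperone, HTB2 a histone H2B, EUG1 an endoplasmic reticulum protein disulfide isomerase and PKH2 a kinase of the sphingolipid signal. The pkh2Δ strain recovered 12.4% of an acute loss of −0.94, and the htb2Δ strain 14.5% of a loss of −0.91. In RefSeq's order of genes (assembly R64), some strains of low recovery lack genes that lie next to each other on a chromosome. These are the pairs HDA2 and MHR1, PCP1 and GTF1, ADH3 and YMR084W, and MRPL40 and COX10, and in each pair both strains recovered 16.3% or less. PCP1 among them had a contrast past the test without an acute call. Only named strains with an acute loss or a contrast above 0 past the test were searched, and most of these had low recovery. The number of such pairs that chance gives was not computed. Whether a deletion alters its neighbour was not tested.

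The fully repaired class was headed by YJR124C, an uncharacterised gene whose product resembles membrane transporters. This strain had 0.90, 1.37 and 1.63 as lowest, median and highest on the adapted arrays, and −1.61, −1.81, −1.64 and −1.19 on the acute arrays. Both tags gave the pattern. The mean was 1.34 ± 0.27 in adapted over acute (SD, n = 6; limma adjusted p = 0.00488) and −1.56 ± 0.27 in acute over untreated (SD, n = 4; limma adjusted p = 0.0446). The loss lay between those of yap1Δ and skn7Δ, and 86.0% of it was recovered, with a standard error of 9.45 percentage points (79.6% to 93.9% with single arrays left out). It was the one strain of all 4611 that rose on the adapted arrays at a Benjamini-Hochberg adjusted p under 0.05.

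Strains without ESCRT and Rim101 functions gave 5 of the 16 fully repaired strains, while the list makes up 0.542% of all strains. None of the 58 unrepaired strains was in it, which that share would give as well. Of the 25 strains in this list, 6 fell in the acute comparison, beside 2.67% of all strains. On the adapted arrays 6 of these 6 rose, beside 26 of the 123 acute losses (21.1%) and 1.26% of all strains. The recovered share of the 6 had a median of 88.3%. Without acute replicate 2, the acute calls of rim101Δ, rim20Δ, rim8Δ and vps20Δ were lost and those of stp22Δ and vps36Δ held, and the gains of the 6 held without each adapted array. VPS36 encodes an ESCRT-II subunit. The vps36Δ strain had 0.22, 0.60 and 1.15 as lowest, median and highest on the adapted arrays, and −0.62, −0.54, −0.63 and −0.49 on the acute arrays. STP22 encodes an ESCRT-I subunit, and stp22Δ had 0.26, 0.53 and 1.00 on the adapted arrays and −0.60, −0.83, −0.73 and −0.44 on the acute arrays. The values of the pair were above 0 on every adapted array and below 0 on every acute array.

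The Rim101 branch gave values of the same order. RIM101 encodes a repressor activated in alkaline medium by proteolysis, and RIM20 a scaffold of that step. The rim101Δ strain had 0.25, 0.38 and 0.88 as lowest, median and highest on the adapted arrays, and −0.61, −0.41, −0.72 and −0.36 on the acute arrays. The rim20Δ strain had 0.17, 0.44 and 0.76 on the adapted arrays and −0.66, −0.44, −0.67 and −0.36 on the acute arrays. The acute calls of both were lost when any one of the 4 acute arrays was left out, and their gains held without each adapted array. RIM8, which links the pH sensor to ESCRT, was just under the limit with 73.7% recovered. Another 3 strains of the list rose on the adapted arrays without an acute call, those lacking SNF7, VPS25 and RIM13 (0.52, 0.48 and 0.46), named after their values were seen. Their acute means of −0.57, −0.59 and −0.50 had a wide spread, from −1.23 to −0.07 over single arrays.

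Other fully repaired strains shared no list. PKR1 is needed to assemble the vacuolar ATPase, and pkr1Δ had 0.29, 0.57 and 0.89 as lowest, median and highest on the adapted arrays and −0.50, −0.89, −0.81 and −0.60 on the acute arrays. SLM4 encodes a subunit of the EGO complex on the vacuole, and slm4Δ had 0.26, 0.51 and 0.76 on the adapted arrays and −0.65, −0.35, −0.51 and −0.44 on the acute arrays. Both gains held with each array left out in turn. The acute call of pkr1Δ held as well, and that of slm4Δ was lost without acute replicate 1, 3 or 4. TOP1 encodes topoisomerase I and GPH1 glycogen phosphorylase, and their strains recovered 84.7% and 83.4% of the loss, with gains that were lost without 4 and 3 of the adapted arrays. The gains were lost without adapted replicates 2, 4, 5 or 6 in top1Δ, and without 3, 4 or 6 in gph1Δ. FMP25, needed for assembly of the bc1 complex, was the one mitochondrial strain of the class, with 0.28, 0.41 and 0.76 on the adapted arrays and −0.34, −0.54, −0.44 and −0.43 on the acute arrays. Its acute call was lost without acute replicate 2, 3 or 4.

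The classes differed in their tags on the adapted arrays. Both tags were above 0 in adapted over acute in 16 of 16 fully repaired strains, and in 6 of the 55 unrepaired strains with both tags. In acute over untreated both tags were below 0 in 16 of 16 and in 55 of 55. The classes were cut from the mean of the tags, so this is a description. Among the unrepaired, ybp1Δ, mtm1Δ, mrpl4Δ and rrf1Δ had a second tag close to 0 in acute over untreated (−0.04, −0.10, −0.11 and −0.20) beside first tags from −1.37 to −1.19. The acute loss of these 4 strains rests on the first tag.

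**Figure D4:**
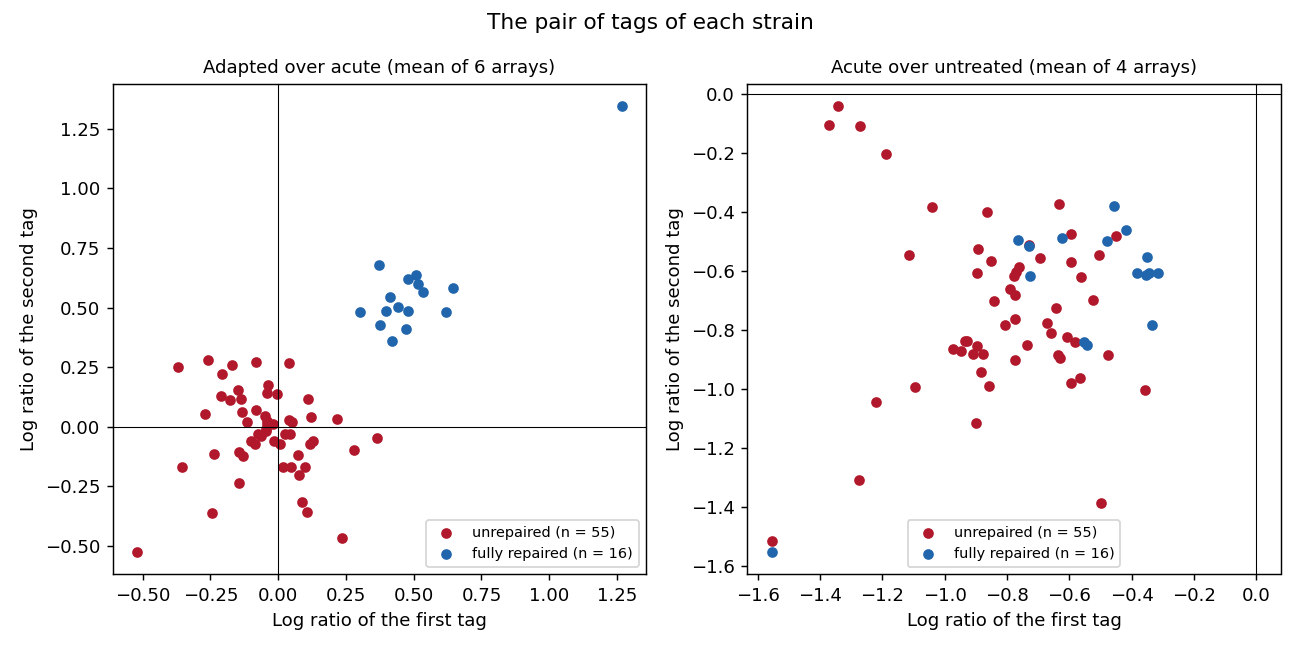
Log ratio of the second tag (y axis) against that of the first tag (x axis) for unrepaired and fully repaired strains with both tags, adapted over acute (mean of 6 arrays) left and acute over untreated (mean of 4 arrays) right. Both tags of all 16 fully repaired strains are above 0 on the left, and on the right both tags of all strains shown are below 0.

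Among the partly repaired strains were those of homologous recombination. Of 29 strains of homologous recombination, 5 fell in the acute comparison (mus81Δ, rad54Δ, rad57Δ, rad59Δ and shu1Δ), beside 2.67% of all strains, and all 5 were in this class, with recovered shares from 36.1% to 72.3%. The list's medians were 0.18 in adapted over acute and −0.29 in acute over untreated, beside −0.01 and −0.01 over all strains. Without acute replicate 1 the acute calls of all but rad59Δ were lost, and those of mus81Δ, rad54Δ and shu1Δ also without any other acute array. Of the 5, rad59Δ rose on the adapted arrays, a call lost without adapted replicate 3, 4 or 5. RAD5 encodes a ligase of postreplication repair, and rad5Δ had 0.08, 0.51 and 0.61 as lowest, median and highest on the adapted arrays and −0.91, −0.78, −1.10 and −0.60 on the acute arrays. It rose on the adapted arrays (limma adjusted p = 0.0879) with 52.6% of its loss recovered. The rad5Δ contrast, 0.40 with a standard error of 0.13 (limma adjusted p = 0.455), missed the threshold. The tef4Δ strain, without a form of translation elongation factor 1B, had the smallest spread of the class, 0.31, 0.41 and 0.56 on the adapted arrays, against −0.73, −0.75, −0.95 and −0.54 on the acute arrays.

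Single strains of mitochondrial metabolism were partly repaired as well. In the acute comparison 2 of 19 strains of the TCA cycle fell, beside 2.67% of all strains. Of mitochondrial fatty acid and lipoate synthesis 2 of 11 fell, and of the carriers and pyrophosphatase 4 of 24. Among the 4 losses of the carrier list, 3 were unrepaired (ggc1Δ, mtm1Δ and ppa2Δ). The strains without CIT1, citrate synthase, LPD1, a subunit shared by dehydrogenases that need lipoate, HFA1, the mitochondrial acetyl-CoA carboxylase, and MRS4, a mitochondrial iron carrier, recovered 47.5%, 69.1%, 63.1% and 72.9%. All but cit1Δ (limma adjusted p = 0.326) passed the test on the adapted arrays. The gain of hfa1Δ was lost without adapted replicate 1, 2, 5 or 6 and that of lpd1Δ without 1, 4, 5 or 6, while that of mrs4Δ held. The acute calls of hfa1Δ and mrs4Δ were lost without any one acute array, and that of lpd1Δ without acute replicate 2, 3 or 4. The 11 strains of mitochondrial fatty acid and lipoate synthesis had list medians of 0.29 in adapted over acute and −0.35 in acute over untreated. On the adapted arrays 4 of them rose, beside 1.26% of all strains. The htd2Δ strain of the same list recovered 22.8% and had a wide adapted spread, from −0.60 to 0.77.

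**Figure D5:**
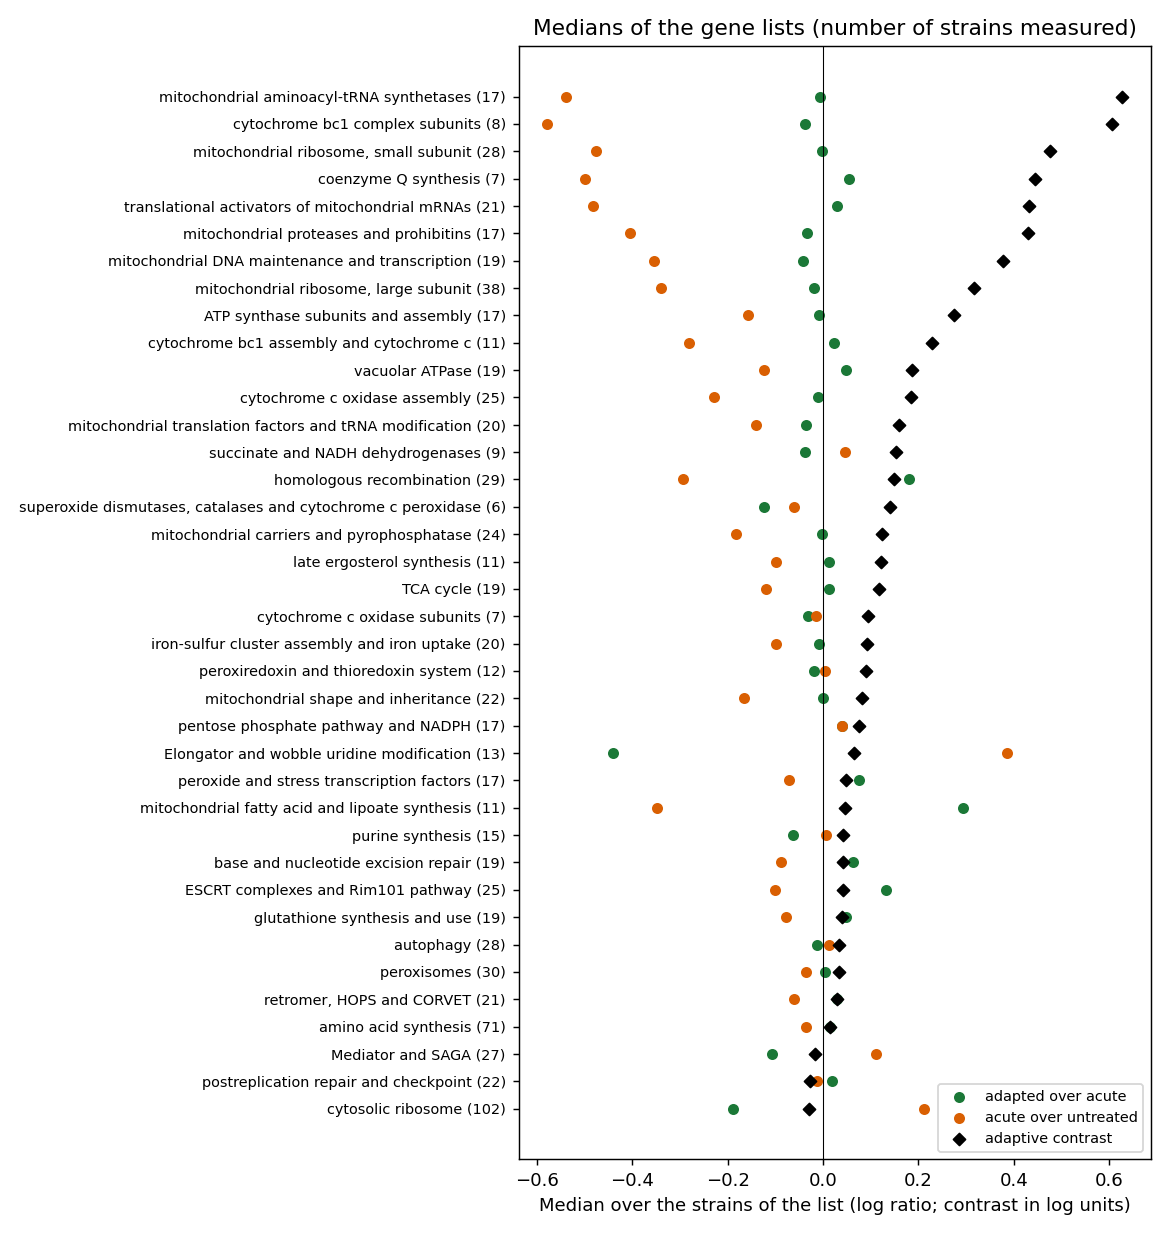
Median log ratio of adapted over acute and of acute over untreated, and median adaptive contrast (x axis), over the measured strains of each of the 38 gene lists (y axis, number of strains in parentheses), ordered by the contrast. Most lists of mitochondrial gene expression combine an acute median well below 0 with an adapted median near 0. That of mitochondrial translation factors and tRNA modification has an acute median of −0.14. Elongator and the cytosolic ribosome lie on opposite sides of 0 in the comparisons with a contrast near 0.

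Strains that rose in the acute comparison moved the other way on the adapted arrays in part. In the acute comparison 43 strains rose, 0.933% of all, and on the adapted arrays 13 of these 43 fell (30.2%, beside 1.52% of all strains) and none rose (limma, unadjusted p under 0.005; at an unadjusted p under 0.05, 32 fell and none rose). Without acute replicates 2, 3 and 4 the counts were 5 of 20, 3 of 14 and 2 of 13, and without adapted replicates 2 and 4 together 7 of 43 (16.3%, beside 0.672% of all strains). The 43 had a median of −0.39 in adapted over acute and 0.58 in acute over untreated, and a median contrast of −0.25. Elongator modifies the wobble uridine of tRNAs, and its 13 strains had list medians of −0.44 in adapted over acute and 0.39 in acute over untreated, with 5 lower on the adapted arrays and a median contrast of 0.07. The elp6Δ strain, without an Elongator subunit, had −0.86, −0.49 and −0.25 as lowest, median and highest on the adapted arrays, and 0.31, 0.34, 0.67 and 0.45 on the acute arrays. The 102 strains of the cytosolic ribosome had medians of −0.19 and 0.21 in the same order, with 16 lower and 1 higher on the adapted arrays and a median contrast of −0.03. The rps7aΔ strain ranged from −0.97 through −0.49 to −0.02 on the adapted arrays, against 0.31, 0.43, 0.96 and 0.75 on the acute arrays. These 2 strains were chosen after their values were seen, so the distance between their comparisons is a description.

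A contrast below 0, a level above the untreated one relative to the pool, passed the test in 8 strains. Of these, 7 have a gene name (DUG2, NTA1, NPP1, MAL12, SWI6, YOL131W and SLA1). At this threshold chance alone would give about 11.5 strains in 1 direction, more than these 8. The strains without NTA1, an N-terminal amidase, and DUG2, a subunit of a glutathione-degrading peptidase, had means above 0 in both comparisons, 0.46 and 0.46 for nta1Δ and 0.35 and 0.41 for dug2Δ. The contrasts were −0.93 (standard error 0.24, limma adjusted p = 0.202) and −0.76 (standard error 0.19, limma adjusted p = 0.201). The swi6Δ strain, without a cofactor of the transcription at the start of the cell cycle, had −0.29, −0.11 and 0.22 as lowest, median and highest on the adapted arrays and 0.73, 0.17, 1.16 and 0.97 on the acute arrays. None of the 8 passed at an adjusted p under 0.05, and 2 to 9 strains were called with single arrays left out. There were 2 without adapted replicate 6, 3 without acute replicate 4, 4 without adapted replicate 1 or 5 and 5 without acute replicate 1.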

How the data were processed

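The authors hybridised tags of the pool to 2-colour arrays and corrected each array by its median and by loess with the R package hoptag, and the deposited table holds 1 log ratio a spot and array. The sources used here do not give the log base, and the deposited ratios were read as natural log values. They were read as Cy5 over Cy3, with the sign turned for spots after position 5400. The table alone does not settle the overall direction. Read this way, yap1Δ, without the main peroxide-sensing activator, had the lowest mean of the strains called in acute over untreated (−1.64). Turning every sign would turn every log ratio and contrast, but no p-value and no recovered share. As deposited, the columns had medians of −0.0106, −0.0144, −0.0171 and −0.0144 for acute replicates 1 to 4, and 0.00403, −0.00604, 0.0115, 0.0110, 0.00659 and −0.00225 for adapted replicates 1 to 6, close to 0.

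Of 22575 spots, 16850 held values. Their genes came from the platform annotation, with 18794 spots of 1 symbol and none of several, of which 18786 matched RefSeq genes (assembly R64). Measured spots without a gene name (1014) were counted and not named, and 14 unnamed positions with identical values were merged. Replicate spots repeat their main spot and were counted once. The sources used here do not say which tag is upstream or downstream of the deletion cassette. The tags of a strain were averaged on each array and the strain values then quantile normalized within each comparison, in the order of the study's Methods.

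Each comparison was fitted with limma 3.58.1 (R 4.3.3; tables with Python 3.11.15, pandas 2.3.3 and numpy 2.4.6, figures with matplotlib 3.10.9), and the contrast in 1 fit over both. The scripts were tested on simulated data. The signal behind a ratio is not in the table, so the number of arrays limits the precision. P-values measure the spread between arrays. Members and lists were chosen with earlier results of these data known. The strains named are the unrepaired ones of lowest contrast p, the fully repaired ones of highest gain, acute losses that rose on the adapted arrays, all contrast calls without an acute call or below 0, up to 3 of each list by contrast p, a fixed set of regulators, strains at class limits and those lowest on the adapted arrays. Others were picked after their values were seen. List symbols were matched by current symbol, or by an older one that no other gene now bears. Alternatives covered normalization, scaling, tags, spread, threshold, class limits, a replicate block and leaving out arrays.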

Additional observations from a re-analysis of the deposited data

Results flagged for a closer look

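In the pry1Δ strain, which lacks a sterol-binding secreted protein and was fully repaired with 81.3% of its loss recovered, acute replicate 3 stood apart from the other acute arrays. It had −1.25, while the others lay between −0.60 and −0.48, and the gap took 0.841 of the group's range. Chance flags about 1 in 20 groups of arrays. Of 132 groups checked, 1 was flagged, fewer than that rate gives.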

How the results depend on the processing

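Strains fallen in the acute comparison numbered 66 to 123 with single arrays left out, of which 11 to 24 rose and 1 to 2 fell on the adapted arrays. The contrast was above 0 in 49 to 74 strains and below 0 in 2 to 9, with 31 to 60 unrepaired, 7 to 20 fully repaired and a median recovered share of 0.594% to 16.1%. With 1 fit over the 10 arrays, 43 acute losses rose and 2 fell on the adapted arrays, with 29 fully repaired. With 1 spread shared by all strains, 116 contrasts were above 0, 4 losses fell again and 104 strains were unrepaired. Arrays scaled to 1 median absolute deviation gave 26 fully repaired strains. The first tag alone gave 56 acute losses, 42 contrasts above and 2 below 0, 6 losses that rose and 0 that fell on the adapted arrays, 23 unrepaired and 3 fully repaired. It turned the contrast of npp1Δ to 0.0035. The second tag alone gave 45 contrasts above 0, 12 losses that rose and 31 unrepaired. Without moderation of the spread there were 49 acute losses, 44 contrasts above and 5 below 0, 11 losses that rose, 14 unrepaired, 10 fully repaired and a median recovered share of 29.4%. At an adjusted p under 0.05 (limma) these were 3 acute losses, 16 contrasts above and 0 below 0, 1 loss that rose and 0 that fell, 2 unrepaired and 1 fully repaired. Limits of 10% and 90% left 7 fully repaired strains. Without adapted replicates 2 and 4, 13 losses rose, and leaving out strains at the sign boundary, also chosen after seeing the data, moved no count by over 1.5 times. The cause of these shifts was not tested, also where fewer arrays or tags entered.

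Replicate numbers did not pair the arrays. Deviations of same-numbered arrays had r = −0.34, 0.26, −0.17 and −0.24, and 1 of 4 acute arrays was closest to its own number. With the replicate block, 65 contrasts were above 0 and 6 below 0, with 48 unrepaired strains, 42 of them among the 58.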

Other observations

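Mediator and SAGA link activators to RNA polymerase II. Of 27 such strains 4 fell on the adapted arrays (limma, unadjusted p under 0.005), namely srb8Δ, ssn2Δ, gal11Δ and ngg1Δ, beside 1.52% of all strains, and 7 of the 27 had a mean above 0. The call of ngg1Δ was lost without adapted replicate 1, 4, 5 or 6. The list's median was −0.11 in adapted over acute and its median contrast −0.02. The srb8Δ strain, without a subunit of the Mediator kinase module, had −0.52, −0.41 and −0.27 as lowest, median and highest on the adapted arrays, and 0.64, 0.33, 0.90 and 0.52 on the acute arrays. It was named for its contrast p within the list, and the distance between its comparisons was not tested.

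Of the 19 strains of the vacuolar ATPase, which acidifies the vacuole, 1 rose on the adapted arrays, vph1Δ. In a list of this size that is near the 1.26% of all strains. The 2 strains of the list that fell in the acute comparison, beside 2.67% of all strains, were vma3Δ and vph2Δ, both partly repaired. The vph1Δ strain had 0.19, 0.94 and 1.27 as lowest, median and highest on the adapted arrays. On the acute arrays it had −0.96, −0.67, −1.43 and −0.28, all below 0 though the acute call was missed. Its contrast was 0.00, with 99.5% of the acute mean recovered. The vph1Δ strain was picked after its values were seen.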
